A study of Mus musculus with 12 samples.

Results

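The nuclear genes for the subunits of respiratory complexes II to V and for cytochrome c were described across brown and white fat of mice without and with adipose Mcu. The 47 members are the protein-coding genes named Sdha, Sdhb, Sdhc, Sdhd, Cyc1 and Cycs, and those whose symbols begin with Uqcr, Cox4 to Cox8 or Atp5, out of 52550 gene IDs in the deposited count table. Cox7a1 and Cox8b, isoforms known from muscle and brown fat, and the genes of the mitochondrial genome were left out of the 47. Complex II has 4 members, complex III 9, complex IV 16 and complex V 17, and cytochrome c adds 1. No expression value was used to choose them.

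Polyadenylated RNA was sequenced from brown adipose tissue (BAT) and inguinal white adipose tissue (WAT), in 12 libraries. The 4 groups were BAT of Mcu fl/fl AKO mice, BAT of Mcu fl/fl mice (BAT control), WAT of Mcu fl/fl AKO mice and WAT of Mcu fl/fl mice (WAT control), with 3 libraries each. Mcu encodes the pore of the mitochondrial calcium uniporter. Every group carries floxed Mcu alleles, the AKO mice are the adipose-specific Mcu knockouts, and the design text places AKO mice and controls on a high-fat diet. The sources used here do not name the Cre driver, and give neither the age nor the sex of the mice. The labels do not say whether each library is a separate mouse, and the p-values therefore describe library-to-library spread, which may be technical.

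Complex II (succinate dehydrogenase) passes electrons from succinate to ubiquinone, complex III passes them from ubiquinol to cytochrome c, and complex IV passes them from cytochrome c to oxygen. Complexes III and IV pump protons, and complex V, the ATP synthase, lets protons flow back and makes ATP. Brown fat is known for dense mitochondria in which UCP1 lets protons return without making ATP, and for little ATP synthase relative to its respiratory chain. The ring of subunit c in the ATP synthase carries the protons, and in mammals several genes encode the same mature subunit c with different import sequences.

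Each library held between 15692588 and 18967159 counts. The members took 3.23% to 3.72% of the counts in BAT libraries and 0.735% to 0.871% in WAT libraries. The tissue labels fitted their markers: 8 brown adipocyte markers, among them Ucp1, took 0.534% to 0.683% of counts in BAT and 0.00242% to 0.00639% in WAT, and 7 general adipocyte markers took 1.86% to 2.14% in BAT and 2.92% to 3.60% in WAT. Levels of a gene are given as CPM, the count scaled to library size with TMM factors over all 12 libraries. Mcu itself stood at 9.62, 14.3 and 8.13 CPM in BAT AKO libraries against 25.9, 29 and 23.6 CPM in BAT controls, and at 10.1, 12.6 and 10.9 CPM in WAT AKO libraries against 18.3, 19 and 19.2 CPM in WAT controls. Each AKO library lay below each control library of its tissue, and with 3 libraries on each side the exact permutation test (two-sided) reached its lower limit, p = 0.1, for BAT and for WAT alike. In edgeR's test across all genes Mcu was lower by log2 values of −1.27 in BAT (SE 0.222, adjusted p = 0.202) and −0.75 in WAT (SE 0.127, adjusted p = 0.0799), neither past the threshold of 0.05.

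Some libraries also held skeletal muscle transcripts. A list of 16 skeletal muscle markers took 1.95% of counts in BAT AKO library 2, 2.65% in WAT AKO library 2 and 1.5% in WAT control library 1. It took 0.383% in WAT control library 2, 0.207% in BAT control library 1 and at most 0.0648% in each of the other 7 libraries. In WAT, 41 of 45 members with counts were highest in AKO library 2 among the AKO libraries, and 41 of 45 were highest in control library 1 among the controls. In BAT AKO library 2, 3 of 45 members (Cox6a2, Atp5g1 and Atp5j) were the highest of their group and 26 of 45 the lowest. The part of muscle RNA in these orders was not tested. These 3 members are given with and without those libraries below.

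Of the 47 members, 45 passed the filter on low counts in every comparison. Cox7b2 and Cox8c, isoforms of complex IV subunits known from testis, had 0 counts in all 12 libraries, which allows up to 3 counts in each. Each comparison was fitted with edgeR over the whole gene table, and a member was called where its p-value, adjusted by Benjamini-Hochberg over all genes tested, was below 0.05.

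Brown fat held far more RNA of these subunits than white fat, in both genotypes. In AKO mice 42 of 45 members were higher in BAT than in WAT and 0 were lower, where 28.8% of all 15671 genes tested were higher and 30.5% lower. In control mice 40 of 45 were higher and 1 was lower, where 24.4% of 15031 genes were higher and 25.7% lower. In either direction, 42 members were called in AKO mice (59.3% of all genes) and 41 in controls (50.1%), and the log2 fold change was above 0 for 44 members in AKO mice (49.1% of all genes) and 43 in controls (48%). The median log2 fold change of the members, BAT over WAT, was 2.47 in AKO mice and 2.44 in controls, where the median of all genes tested was −0.02 in AKO mice and −0.04 in controls. The 3 BAT libraries lay wholly above the 3 WAT libraries for 42 members in AKO mice (29.3% of all genes) and for 40 in controls (28.8%), and wholly below for 0 members in AKO mice (38% of all genes) and for 1 in controls (32.7%).

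The genes called higher were largely shared by the genotypes, which rest on separate libraries. 39 members were higher in BAT in both genotypes, and 33 of 45 members exceeded 4-fold in AKO mice and 32 of 45 in controls. Over all genes, those higher in both genotypes cannot exceed the 3666 of 15031 called higher in controls. The share of all genes above 4-fold was not counted. The log2 fold changes of the 45 members followed each other between AKO mice and controls with Pearson's r of 0.86 and Spearman's rho of 0.97, described over genes that are not independent. They lay within 0.5 of each other for 41 members, and the 4 others were Cox6a2, Cox6b2, Atp5g1 and Cycs. Mitochondrial transcripts took 14.7% to 17.8% of counts in BAT libraries and 2.87% to 3.78% in WAT libraries, so the scaling between the tissues matters. With library totals as the only scaling, the median of all genes tested stood at −0.59 in AKO mice and −0.40 in controls, and the median of the members at 1.91 in AKO mice and 2.09 in controls. In that scaling 2069 genes of the whole table were called higher and 8751 lower in AKO mice, against 4510 and 4781 with TMM, and 2120 higher and 6252 lower in controls, against 3666 and 3858 with TMM. In tissue RNA, fewer cells of a type and less RNA per cell cannot be told apart.

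**Figure D1:**
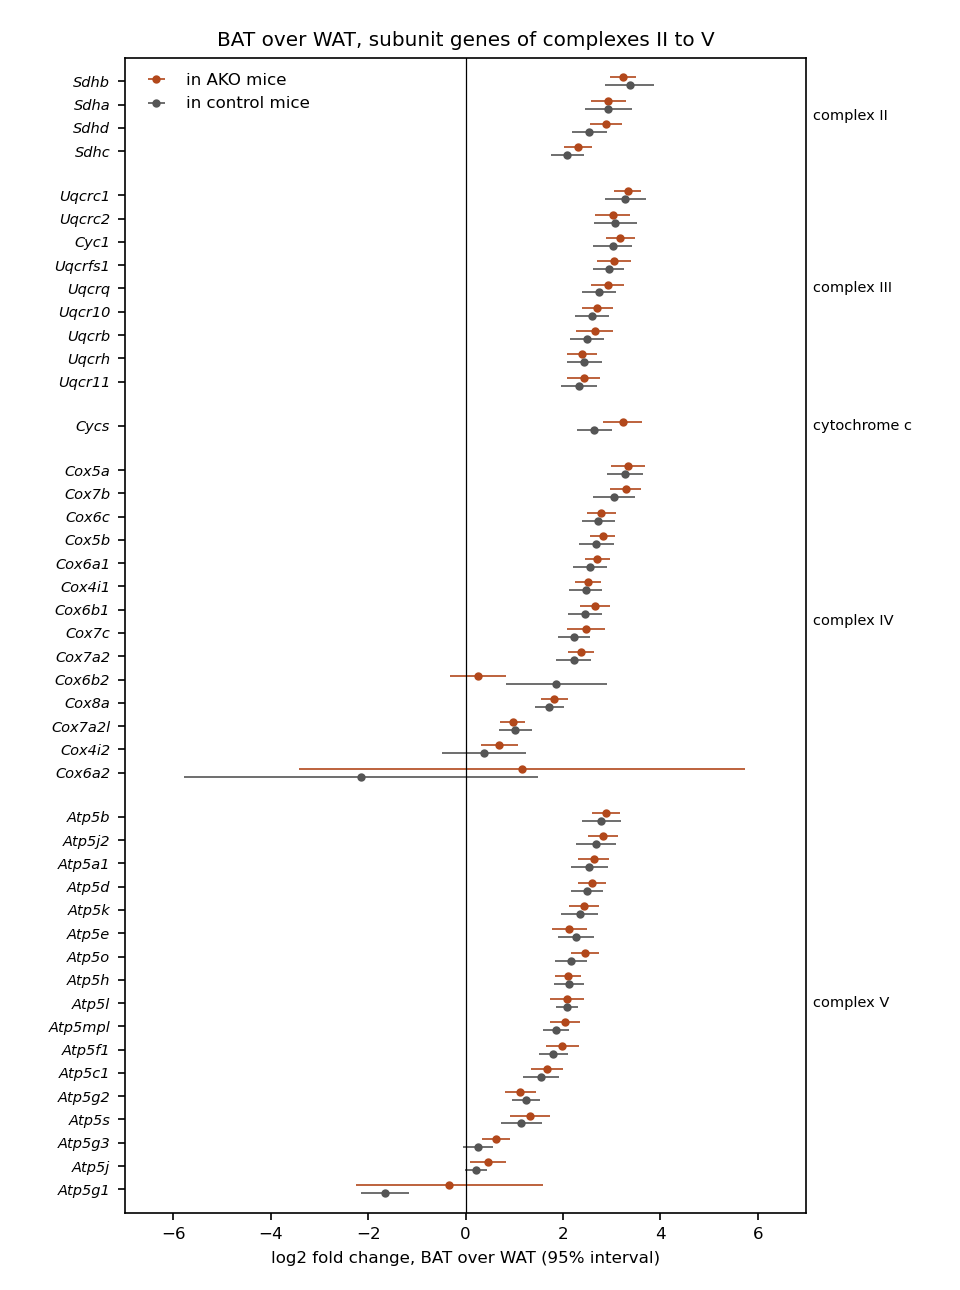
Log2 fold change of BAT over WAT (x axis, with 95% intervals from edgeR) for each of the 45 members with counts, grouped by complex and ordered by the value in controls, in AKO mice (brown) and control mice (grey). Most members lie above 2 in both genotypes, while the subunit c genes Atp5g1 to Atp5g3 and Atp5j lie at or below 1.24.

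All 4 genes of complex II were higher in BAT, with a median log2 fold change of 2.91 in AKO mice and 2.74 in controls. Sdhb, the iron-sulfur subunit, had 1020, 907 and 959 CPM in BAT AKO libraries against 103, 114 and 107 CPM in WAT AKO libraries, and 1020, 1050 and 947 CPM in BAT controls against 128, 91.5 and 78.8 CPM in WAT controls. The tissues did not overlap, and Sdhb had the largest fold change of complex II in both genotypes, with log2 values of 3.24 in AKO mice (SE 0.113, adjusted p = 4.17e-06) and 3.37 in controls (SE 0.209, adjusted p = 6.32e-05). Sdha, the flavoprotein that oxidises succinate, followed at 2.93 in AKO mice and 2.93 in controls. The membrane anchors Sdhd and Sdhc stood at 2.89 and 2.31 in AKO mice and at 2.54 and 2.09 in controls.

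All 9 genes of complex III were higher in BAT, with a median of 2.92 in AKO mice and 2.74 in controls, and with the narrowest range of the complexes with more than 4 genes, 2.39 to 3.33 in AKO mice and 2.34 to 3.28 in controls. Uqcrc1, a core protein, had 2000, 1800 and 1960 CPM in BAT AKO libraries against 190, 215 and 202 CPM in WAT AKO libraries, and 1990, 2010 and 1940 CPM in BAT controls against 259, 182 and 186 CPM in WAT controls. Its BAT libraries stood 9.49 times (AKO) and 9.46 times (control) as high as its WAT libraries by group means, or on the log2 scale 3.33 in AKO mice (SE 0.117, adjusted p = 4.17e-06) and 3.28 in controls (SE 0.178, adjusted p = 4.88e-05). Cyc1 (cytochrome c1) stood at 3.18 in AKO mice and 3.02 in controls. Uqcrc2, the other core protein, stood at 3.02 in AKO mice and 3.08 in controls, and the Rieske iron-sulfur protein Uqcrfs1 at 3.05 in AKO mice and 2.94 in controls. The small subunits Uqcrh, Uqcr11 and Uqcrb were the lowest of the complex in controls, at 2.44, 2.34 and 2.49.

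Cycs, the somatic cytochrome c that carries electrons between complexes III and IV, had 915, 826 and 942 CPM in BAT AKO libraries against 90.8, 124 and 89.4 CPM in WAT AKO libraries, and 826, 860 and 792 CPM in BAT controls against 157, 113 and 138 CPM in WAT controls. Its BAT libraries were all above its WAT libraries, and the log2 fold change of BAT over WAT was 3.22 in AKO mice (SE 0.173, adjusted p = 8.64e-06) and 2.64 in controls (SE 0.151, adjusted p = 5.15e-05). The test of the difference between the genotypes is given with the AKO comparisons.

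Of the 14 genes of complex IV with counts, 12 were higher in BAT in AKO mice and 12 in controls, with medians of 2.49 in AKO mice and 2.34 in controls. Cox5a, a matrix-side subunit that binds thyroid hormone metabolites, had 205, 186 and 201 CPM in BAT AKO libraries against 17.7, 24.5 and 19.7 CPM in WAT AKO libraries, and 184, 213 and 183 CPM in BAT controls against 24.6, 18.6 and 18.2 CPM in WAT controls. It had the largest fold change of complex IV in both genotypes, a log2 value of 3.34 in AKO mice (SE 0.149, adjusted p = 5.92e-06) and 3.27 in controls (SE 0.154, adjusted p = 4.31e-05). Cox7b stood at 3.29 in AKO mice and 3.04 in controls, and Cox6c at 2.79 in AKO mice and 2.73 in controls. Cox4i1, the main form of the regulatory subunit that binds ATP, stood at 2.51 in AKO mice and 2.47 in controls. The 6 other genes outside the isoforms described next (Cox5b, Cox6a1, Cox6b1, Cox7c, Cox7a2 and Cox8a) lay between 1.82 and 2.82 in AKO mice and between 1.72 and 2.68 in controls, with Cox8a the lowest in both.

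The genes of complex IV with small or no called differences between the tissues were mostly alternative isoforms. Cox7a2l, which helps join complexes III and IV into supercomplexes, had 281, 254 and 244 CPM in BAT AKO libraries against 128, 138 and 156 CPM in WAT AKO libraries, and 254, 254 and 213 CPM in BAT controls against 122, 137 and 104 CPM in WAT controls. The tissues did not overlap, but the log2 fold change was 0.97 in AKO mice (SE 0.109, adjusted p = 0.000217) and 1.02 in controls (SE 0.144, adjusted p = 0.00138), the smallest called values of complex IV in controls. Cox4i2, an isoform known from lung and low oxygen, measured 0.69 in AKO mice (adjusted p = 0.00806) and 0.38 in controls (adjusted p = 0.407). Cox6b2, an isoform known from testis, was higher in BAT in controls at 1.87 (adjusted p = 0.0117) and measured 0.25 in AKO mice (adjusted p = 0.414). For Cox4i2 the call in AKO mice held in 16 of 21 settings, the main test included. It was lost, among others, with all 12 libraries in the fit (0.62, adjusted p = 0.0936) and with library totals (0.11, adjusted p = 0.631).

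Complex V was less uniform: 16 of 17 genes were higher in BAT in AKO mice, and in controls 14 were higher and 1 was lower. Its median log2 fold change was 2.08 in AKO mice and 2.09 in controls. The catalytic beta subunit Atp5b had 8570, 7920 and 9180 CPM in BAT AKO libraries against 1150, 1310 and 1220 CPM in WAT AKO libraries, and 8400, 8970 and 8680 CPM in BAT controls against 1540, 1120 and 1210 CPM in WAT controls. Its log2 fold change, the largest of complex V, was 2.88 in AKO mice (SE 0.124, adjusted p = 5.64e-06) and 2.79 in controls (SE 0.168, adjusted p = 5.76e-05). The alpha subunit Atp5a1 stood at 2.63 in AKO mice and 2.54 in controls, and the membrane subunit Atp5j2 (subunit f) at 2.82 in AKO mice and 2.68 in controls. The gamma subunit Atp5c1, the rotor shaft, stood lower at 1.66 in AKO mice and 1.55 in controls, and Atp5s (coupling factor B) at 1.32 in AKO mice and 1.15 in controls. Apart from these and from the genes described next, the complex has 8 members, and these lay between 1.98 and 2.60 in AKO mice and between 1.80 and 2.50 in controls, from Atp5f1 (subunit b) to Atp5d (delta).

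The genes of the subunit c ring did not follow the catalytic head. Atp5g3 had 358, 349 and 297 CPM in BAT AKO libraries against 205, 250 and 232 CPM in WAT AKO libraries, and 307, 351 and 273 CPM in BAT controls against 293, 250 and 253 CPM in WAT controls. The groups overlapped in controls, and the log2 fold change was 0.63 in AKO mice (SE 0.125, adjusted p = 0.00352) and 0.26 in controls (SE 0.131, adjusted p = 0.142). Atp5g2 was higher in BAT, with 156, 153 and 141 CPM in BAT AKO libraries against 59.2, 80.6 and 79.2 CPM in WAT AKO libraries, and 143, 157 and 133 CPM in BAT controls against 69.9, 62.5 and 54.7 CPM in WAT controls. Its log2 fold change was 1.13 in AKO mice (SE 0.135, adjusted p = 0.000303) and 1.24 in controls (SE 0.124, adjusted p = 0.000334). The call of Atp5g3 in AKO mice held in 17 of 21 settings, the main test included. It was lost, among others, with library totals (0.06, adjusted p = 0.664).

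Atp5g1 was the 1 member called lower in BAT, in controls, beside Cox6a2 under the alternatives given with that gene. Atp5g1 had 5.3, 55.6 and 7.14 CPM in BAT AKO libraries against 24.6, 41.2 and 26.1 CPM in WAT AKO libraries, and 11.8, 8.72 and 8.23 CPM in BAT controls against 36.1, 32.3 and 24.8 CPM in WAT controls. In controls every BAT library lay below every WAT library, and the log2 value was −1.66 (SE 0.208, adjusted p = 0.000865). With all 12 libraries in the fit the value was −1.65 with an adjusted p of 0.0729. In AKO mice the high value was that of BAT AKO library 2, which held 1.95% muscle marker counts, and the log2 fold change was −0.34 (SE 0.821, adjusted p = 0.743). Without that library it was −2.21 (SE 0.296, adjusted p = 0.000833), and without the library richest in muscle counts in each group it was −1.94 in AKO mice (adjusted p = 7.19e-05) and −1.70 in controls (adjusted p = 0.00687). The test of the difference between the genotypes gave 1.25 (SE 0.986, adjusted p = 0.53), or −0.63 without BAT AKO library 2 (adjusted p = 0.43).

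The promoter windows of the subunit c genes and of Atp5b are printed because these genes encode parts of the same complex while their BAT to WAT differences spread from below 0 to above 2 on the log2 scale. Each window runs from 250 bases before to 50 bases after the RefSeq start (build GRCm38.p6) and is written 5′ to 3′ on the strand of the gene, with matches to the motifs named below in capitals.
Atp5g1 (chr11:96075582-96075881, minus strand): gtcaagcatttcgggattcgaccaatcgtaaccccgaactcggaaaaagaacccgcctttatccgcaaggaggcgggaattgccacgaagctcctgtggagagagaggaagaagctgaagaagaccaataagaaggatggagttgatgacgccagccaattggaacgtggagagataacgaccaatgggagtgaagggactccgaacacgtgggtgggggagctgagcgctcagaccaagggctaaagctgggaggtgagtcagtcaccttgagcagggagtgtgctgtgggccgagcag
Atp5g2 (chr15:102670998-102671297, minus strand): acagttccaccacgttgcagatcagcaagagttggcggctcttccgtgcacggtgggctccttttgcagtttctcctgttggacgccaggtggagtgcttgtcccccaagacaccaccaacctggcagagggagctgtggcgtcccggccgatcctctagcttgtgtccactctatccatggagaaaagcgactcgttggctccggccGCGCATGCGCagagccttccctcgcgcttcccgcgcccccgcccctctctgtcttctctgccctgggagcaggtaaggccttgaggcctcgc
Atp5g3 (chr2:73911277-73911576, minus strand): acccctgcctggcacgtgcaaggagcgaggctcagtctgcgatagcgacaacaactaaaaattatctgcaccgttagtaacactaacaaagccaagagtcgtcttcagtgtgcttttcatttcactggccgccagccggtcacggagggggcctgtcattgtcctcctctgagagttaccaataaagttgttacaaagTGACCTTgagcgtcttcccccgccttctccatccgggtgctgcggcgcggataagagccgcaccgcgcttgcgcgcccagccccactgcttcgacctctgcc
Atp5b (chr10:128083057-128083356, plus strand): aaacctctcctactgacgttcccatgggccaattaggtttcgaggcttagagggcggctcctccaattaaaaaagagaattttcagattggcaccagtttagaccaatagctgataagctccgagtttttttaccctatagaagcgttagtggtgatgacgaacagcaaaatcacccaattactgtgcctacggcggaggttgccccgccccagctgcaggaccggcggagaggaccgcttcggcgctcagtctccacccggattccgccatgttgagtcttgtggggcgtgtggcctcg
The motifs searched on both strands were AAGGTCA, the half-site of estrogen-related receptors, GCATGCGC, a core of the NRF1 site, and CCGGAAGT, a site of ETS factors such as GABP. Atp5g2 held the NRF1 core on both strands in overlapping matches that begin 42 and 40 bases before the start. Atp5g3 held the estrogen-related receptor half-site on the minus strand of the window, beginning 52 bases before the start. The letters of the 3 motifs were not in the windows of Atp5g1 and Atp5b.

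**Figure D2:**
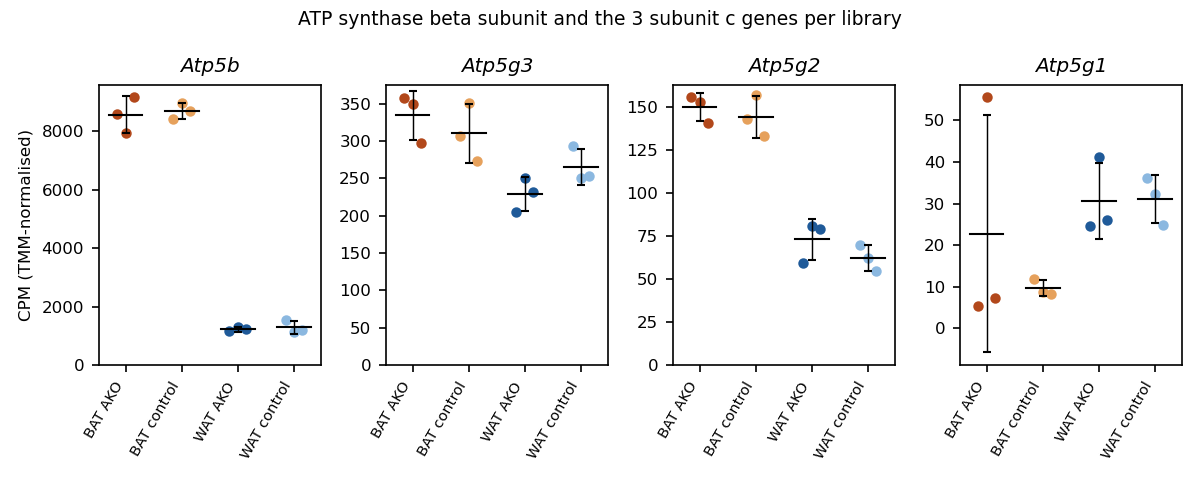
CPM (y axis, linear, TMM-normalised) of Atp5b and of the subunit c genes Atp5g3, Atp5g2 and Atp5g1 in the 12 libraries by group. Points are libraries, bars are means ± SD of 3. Atp5b is higher in BAT by over 6 times, Atp5g3 overlaps between the tissues in controls, and Atp5g1 is lower in BAT except in BAT AKO library 2.

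Of the 47 members, 35 had a RefSeq promoter window. The estrogen-related receptor half-site was in 5 of them (14.3%), against 5.38% of 27025 genes with a window, the NRF1 core in 8 (22.9%) against 3.05%, and the ETS site in 4 (11.4%) against 4.31%. The half-site was in 4 of 15 windows of complex V and 1 of 3 of complex II. It was in 0 of 5 windows of complex III and 0 of 11 of complex IV. A match is a run of letters, and no binding was measured.

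Another gene of complex V, Atp5j (coupling factor 6 of the stalk), lay close to even between the tissues. It had 119, 153 and 118 CPM in BAT AKO libraries against 89.9, 116 and 94.3 CPM in WAT AKO libraries, and 120, 125 and 113 CPM in BAT controls against 114, 100 and 103 CPM in WAT controls. The log2 fold change was 0.46 in AKO mice (SE 0.159, adjusted p = 0.0382), where the groups do not overlap, and 0.21 in controls (SE 0.0957, adjusted p = 0.107). The values in AKO mice lay close together, at 118 CPM for the lowest BAT library and 116 CPM for the highest WAT library, and BAT AKO library 2 was the highest. The call was lost without BAT AKO library 2 (0.32, adjusted p = 0.103), without BAT AKO library 3 (0.53, adjusted p = 0.0502), without WAT AKO library 1 (0.40, adjusted p = 0.129) and without WAT AKO library 3 (0.42, adjusted p = 0.108). Without the library richest in muscle counts in each group Atp5j was called (0.45, adjusted p = 0.0103). With library totals the value in AKO mice turned to −0.11 (adjusted p = 0.493), and without mitochondrial genes in the totals it was 0.12 (adjusted p = 0.486). Atp5j shares 397 exon bases with Gabpa on the opposite strand, which encodes the DNA-binding subunit of GABP, and the strand setting of the counting is not given in the sources used here.

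Levels of different genes were compared per length, in the deposited FPKM (counts scaled by gene length and library total). The ranks rest on the length factor of each gene, which was not checked against its transcripts. Over the 45 members the median of the group means was 292 FPKM in BAT AKO and 269 FPKM in BAT controls, and 67.6 FPKM in WAT AKO and 67.8 FPKM in WAT controls. Cox6a1 had the highest FPKM in every group, at 3070 FPKM in BAT AKO, 3360 in BAT controls, 703 in WAT AKO and 724 in WAT controls. In CPM, without the length factor, Atp5b was above Cox6a1 in every group. Atp5b averaged 8550 CPM against 2510 for Cox6a1 in BAT AKO, and 1290 CPM against 465 in WAT controls. Atp5b led complex V at 1730 FPKM in BAT AKO, 1800 in BAT controls, 350 in WAT AKO and 333 in WAT controls. Cyc1 led complex III at 949 FPKM in BAT AKO, 972 in BAT controls, 156 in WAT AKO and 153 in WAT controls. In CPM Uqcrc1 was above Cyc1 in every group, at 1920 against 1320 CPM in BAT AKO. Sdha led complex II at 680 FPKM in BAT AKO, 711 in BAT controls, 132 in WAT AKO and 118 in WAT controls. Atp5g1 had the lowest FPKM of the members with counts in both BAT groups. It stood at 3.98 ± 5 FPKM in BAT AKO and 1.71 ± 0.344 FPKM in BAT controls (SD, n = 3 each). By mean CPM, without the length factor, it was not the lowest. In BAT controls it averaged 9.59 CPM, above Cox4i2 (6.88), Cox6b2 (6.26) and Cox6a2 (2.8). In BAT AKO its mean was 22.7 CPM, with 55.6 CPM in library 2 and 5.3 and 7.14 CPM in the others.

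Within the isoform families, the share of each gene in the family's FPKM sum was compared between the tissues. In BAT AKO libraries Atp5g1, Atp5g2 and Atp5g3 made up 1.79% ± 2.18, 36.3% ± 1.61 and 61.9% ± 1.40 of subunit c FPKM, and in WAT AKO libraries 3.99% ± 0.808, 28.1% ± 1.75 and 68.0% ± 1.76 (SD, n = 3 each). In BAT controls they made up 0.851% ± 0.182, 37.5% ± 1.00 and 61.7% ± 1.05, and in WAT controls 3.81% ± 0.467, 22.5% ± 1.18 and 73.7% ± 1.65. Atp5g3 was thus the main subunit c transcript in each of the 4 groups, by FPKM as by CPM, and the share of Atp5g2 was higher in BAT. The sizes of the shares depend on the length factor of each gene, and counts on Gm10039, a copy of Atp5g1, are not in them. In CPM, Atp5g1, Atp5g2 and Atp5g3 averaged 9.59, 144 and 311 in BAT controls, and 31.1, 62.4 and 265 in WAT controls. For subunit VIIa, Cox7a1 was counted with Cox7a2 and Cox7a2l. Cox7a1 made up 53.6% ± 1.92 of their FPKM in BAT AKO against 4.96% ± 3.48 in WAT AKO, and 55.1% ± 0.702 in BAT controls against 4.62% ± 2.53 in WAT controls (SD, n = 3 each). Cox7a2 made up 27.9% ± 1.35 in BAT AKO against 34.5% ± 2.65 in WAT AKO, and 27.9% ± 0.709 in BAT controls against 39.7% ± 4.77 in WAT controls. Cox7a2l held the largest share in WAT. It made up 18.6% ± 0.551 in BAT AKO against 60.5% ± 4.79 in WAT AKO, and 17.1% ± 0.85 in BAT controls against 55.7% ± 6.01 in WAT controls. With Cox7a1 left out, Cox7a2 made up the larger share in BAT, 60% ± 0.608 in BAT AKO against 36.3% ± 3.23 in WAT AKO, and 62.1% ± 1.59 in BAT controls against 41.7% ± 5.49 in WAT controls. Cox4i1, Cox6a1 and Cox6b1 each held at least 95.2% of their pair's FPKM in every group mean.

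**Figure D3:**
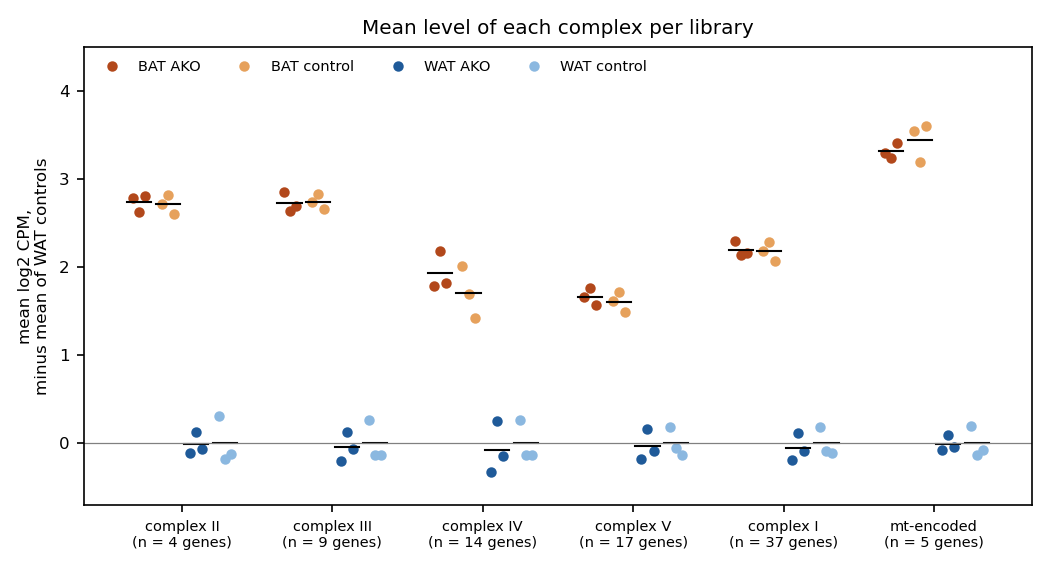
Mean log2 CPM over the members of each complex with counts, minus the mean of the WAT controls (y axis), for each of the 12 libraries by group, with the nuclear subunits of complex I and the subunits of complexes III to V encoded by the mitochondrial genome beside them. Points are libraries and bars are group means. Complexes II and III lie between 2.61 and 2.85 in BAT, complex V between 1.495 and 1.76, and the AKO and control libraries of each tissue overlap in every set.

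Averaged over its members with counts, each complex stood higher in every BAT library than in every WAT library. Relative to the mean of the WAT controls, complex II lay between 2.63 and 2.81 on the log2 scale in BAT AKO libraries and between 2.61 and 2.82 in BAT controls, and complex III between 2.63 and 2.85 in BAT AKO and between 2.66 and 2.83 in BAT controls. Complex IV lay between 1.79 and 2.18 in BAT AKO and between 1.42 and 2.02 in BAT controls, a mean that includes Cox6a2. Complex V was lowest in 4 of the 6 BAT libraries, between 1.57 and 1.76 in BAT AKO and between 1.495 and 1.71 in BAT controls. Relative to the WAT controls, complex V lay below complex III by a log2 difference of −1.19 to −0.87 in the 6 BAT libraries and of −0.08 to 0.08 in the 6 WAT libraries. The mean of complex V includes the low values of Atp5g1, Atp5g3 and Atp5j, and not every member lay low. In controls the median log2 fold change of BAT over WAT was 2.09 for complex V and 2.74 for complex III, and Atp5b stood at 2.79. These means are descriptions, and the complexes were not tested against each other.

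The rest of the respiratory chain moved the same way between the tissues. Of 37 nuclear complex I subunit genes, 37 were higher in BAT in AKO mice and 36 in controls (median log2 fold change 2.39 in AKO mice and 2.33 in controls). All 5 tested subunits of complexes III to V from the mitochondrial genome were higher in both genotypes, with medians of 3.45 in AKO mice and 3.8 in controls. Over all genes tested, 28.8% were higher in BAT in AKO mice and 24.4% in controls. The isoforms Cox7a1 and Cox8b differed more than any of the 45 members with counts, with log2 fold changes of 6.08 and 5.47 in AKO mice and of 6.23 and 5.53 in controls. Cox7a1 had 387, 316 and 346 CPM in BAT AKO libraries against 3.49, 10.2 and 2.71 CPM in WAT AKO libraries, and 366, 379 and 342 CPM in BAT controls against 8.47, 4.07 and 2.21 CPM in WAT controls. In both WAT groups its highest library was the one richest in muscle counts.

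Genes that assemble the complexes were mostly higher in BAT too, with lower medians than the subunits. Of 37 assembly factor genes of complexes II to V in the table, 31 of 34 tested were higher in BAT in AKO mice and 30 of 35 in controls, with medians of 1.25 in AKO mice and 0.96 in controls. Lyrm7 and Uqcc1, both needed for complex III, had the largest values, 2.42 and 2.40 in AKO mice and 2.35 and 2.21 in controls. Surf1, a complex IV factor, measured 0.41 in AKO mice (adjusted p = 0.00327) and 0.47 in controls (adjusted p = 0.00767). Of 12 regulators of respiratory genes, 10 were higher and 1 lower in BAT in AKO mice, and 9 were higher and 0 lower in controls. Beside both lists, 28.8% of all genes tested were higher and 30.5% lower in AKO mice, and 24.4% and 25.7% in controls. The coactivators Ppargc1a and Ppargc1b stood at 3.40 and 4.51 in AKO mice and at 3.00 and 5.22 in controls, and Esrra (estrogen-related receptor alpha) at 2.55 in AKO mice and 2.55 in controls. Nrf1, which binds the NRF1 site, measured −0.22 in AKO mice (adjusted p = 0.21) and 0.29 in controls (adjusted p = 0.177). Gabpb1, a GABP subunit, was lower in BAT in AKO mice at −0.87 (adjusted p = 0.00095) and measured −0.21 in controls (adjusted p = 0.195). The genes of both lists named here beside the rule's members were chosen after their values were seen.

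Between AKO and control mice, no subunit gene of complexes II to V passed edgeR's test in either tissue. In BAT, 0 of 45 members were called, where 0.0771% of 14265 genes were (0.0491% higher and 0.028% lower), and 0 members had an unadjusted p below 0.05, where 7% of all genes were higher and 6.62% lower at that level. DESeq2 called 0 members in BAT. The count over all genes moved with single libraries, to 95 of all genes without BAT control library 2 and to 0 without BAT control library 3 or BAT AKO library 3, with 0 members called in each. The median log2 fold change of the members, AKO over control, was 0.02 in BAT, beside 0.01 over all genes tested. It was above 0 for 27 members and below for 18 (51.6% of all genes above). With library totals 19 were above and 26 below (median −0.02), and 21 were above and 24 below without BAT control library 3. The 95% interval lay within −0.5 to 0.5 for 41 of 45 members, and for 6223 of all 14265 genes tested. The 4 other members were Cox4i2, Cox6a2, Cox6b2 and Atp5g1. These are intervals of single genes, and a p that misses the threshold does not show equal levels.

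The members with the smallest p in BAT differed by little. Cox7c, a small subunit of complex IV, had 399, 353 and 404 CPM in BAT AKO libraries against 342, 366 and 313 CPM in BAT controls. The groups overlapped, and the log2 value was 0.19 (SE 0.0863, adjusted p = 0.389). Sdhd had 694, 579 and 668 CPM in BAT AKO libraries against 558, 649 and 525 CPM in BAT controls, or 0.18 on the log2 scale (SE 0.0971, adjusted p = 0.451). Cycs measured 0.13 (SE 0.075, adjusted p = 0.476). Atp5c1 was the 1 member whose groups did not overlap in BAT, where 8.35% of all genes were wholly higher and 10.3% wholly lower in AKO. It had 630, 621 and 614 CPM in BAT AKO libraries against 586, 601 and 569 CPM in BAT controls (log2 0.10, SE 0.0707, adjusted p = 0.544). It was named after its values were seen.

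**Figure D4:**
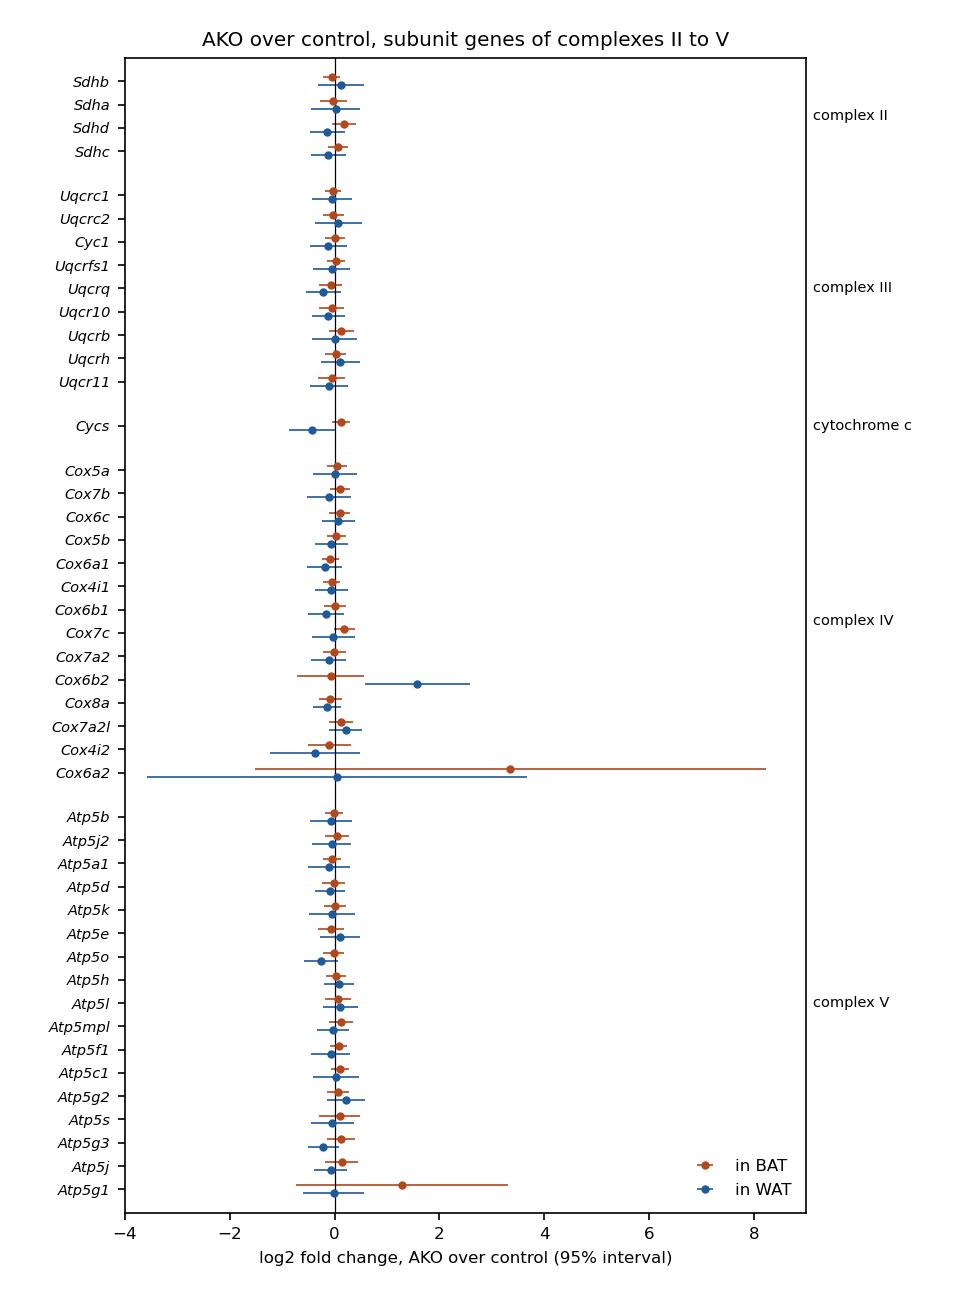
Log2 fold change of AKO over control (x axis, with 95% intervals from edgeR) for each of the 45 members with counts, grouped by complex, in BAT (brown) and WAT (blue). In BAT 41 of 45 intervals lie within −0.5 to 0.5 and in WAT 29 of 45, and Cox6a2, Atp5g1 (BAT) and Cox6b2 (WAT) stand apart. Over all genes tested, 6223 of 14265 intervals lie within −0.5 to 0.5 in BAT and 4042 of 15915 in WAT.

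In WAT, 0 of 45 members were called in AKO against control, where 0.0189% of 15915 genes were, and 1 member, Cox6b2, had an unadjusted p below 0.05, where 10.6% of all genes were higher and 12% lower at that level. The median log2 fold change of the members was −0.05, beside 0.0049 over all genes tested. It was above 0 for 15 members and below for 30 (50.5% of all genes above). Without WAT control library 2 edgeR called 1649 of all genes in place of 3, and 0 members. The direction of the members turned with library totals, where 37 members were above 0 and 8 below (median 0.08, beside 0.14 over all genes), and without WAT control library 1, where 32 were above and 13 below (median 0.07). The 95% interval lay within −0.5 to 0.5 for 29 of 45 members and within −1 to 1 for 42. Over all 15915 genes tested, 4042 and 10067 intervals lay within these limits. The intervals were wider than in BAT, and the WAT groups differed in markers of other cells. A list of 8 B lymphocyte markers took 0.0669%, 0.0436% and 0.115% of counts in WAT AKO libraries against 0.000374%, 0.0392% and 0.000300% in WAT controls, and a list of 8 macrophage markers took 0.0815%, 0.0705% and 0.0749% in WAT AKO libraries against 0.139%, 0.113% and 0.114% in WAT controls. Their part in the values of the members was not tested.

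Cox6b2, the testis isoform of subunit VIb, is encoded on chromosome 7 (4751792 to 4753094 in mm10, minus strand). It had 4.31, 4.12 and 7.31 CPM in WAT AKO libraries against 2.76, 1.07 and 1.44 CPM in WAT controls. Every AKO library was higher than every control library, as was so for 14.9% of all genes in WAT, and the log2 fold change was 1.58 (SE 0.417, unadjusted p = 0.00791, adjusted p = 0.123). DESeq2 called it (1.59, adjusted p = 0.0109), as did edgeR with all 12 libraries in the fit (1.60, adjusted p = 0.0388), and over all alternatives its adjusted p ran from 0.0109 to 0.355. In BAT it had 6.62, 5.77 and 5.23 CPM in AKO libraries against 7.03, 7.94 and 3.8 CPM in controls, with overlapping groups and a log2 value of −0.08 (adjusted p = 0.921). The main isoform Cox6b1 measured 0.01 in BAT (adjusted p = 0.982), and in WAT −0.17 (adjusted p = 0.497). By FPKM, Cox6b2 made up 2.74% ± 0.922 of the pair in WAT AKO and 0.802% ± 0.285 in WAT controls (SD, n = 3 each).

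Cycs had the next smallest p in WAT. It had 90.8, 124 and 89.4 CPM in WAT AKO libraries against 157, 113 and 138 CPM in WAT controls, with AKO library 2 above control library 2. The log2 fold change was −0.42 (SE 0.184, 95% interval −0.86 to 0.02, adjusted p = 0.235), and over all alternatives the value lay between −0.60 and −0.28. Atp5o, the stator subunit known as OSCP, measured −0.26 (SE 0.134, adjusted p = 0.295), and Sdhd −0.14 (adjusted p = 0.588).

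The difference of the AKO effects between the tissues, BAT minus WAT, was called for 0 of 45 members, where 0.275% of 16391 genes were called (0.153% higher and 0.122% lower). Cox6b2 had the smallest adjusted p, with a difference of −1.70 (SE 0.533, adjusted p = 0.145), which DESeq2 called (−1.63, adjusted p = 0.0495). Cycs had a difference of 0.51 (95% interval 0.05 to 0.97, unadjusted p = 0.0329, adjusted p = 0.227). These were the 2 members with an unadjusted p below 0.05, 1 in each direction, where 8.34% of all genes were higher and 10.1% lower. The median difference was 0.04 over the members and −0.02 over all genes tested, with 31 members above 0 (47.9% of all genes). Its sign turned with library totals (median −0.10, 10 members above 0), without WAT control library 1 (median −0.03, 16 above 0) and without WAT AKO library 1 (median −0.02, 22 above 0).

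Assembly factors and regulators likewise gave 0 calls in either tissue in edgeR's test of AKO against control. At an unadjusted p below 0.05, 1 of 35 assembly factors was higher and 0 lower in BAT, where 7% of all genes were higher and 6.62% lower, and 1 of 34 was higher and 3 lower in WAT, where 10.6% of all genes were higher and 12% lower. Of the regulators, 2 of 11 were higher and 1 lower in WAT at that level. In BAT 4 of 12 were higher and 0 lower, among them Ppargc1a at 0.63 (SE 0.175, adjusted p = 0.27) and Esrrg (estrogen-related receptor gamma) at 1.17 (SE 0.365, adjusted p = 0.293), both named after their values were seen. Esrrg measured −1.23 in WAT (SE 0.483, adjusted p = 0.204).

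Cox6a2 and Atp5g1 varied widely between replicates of a group. Cox6a2, the subunit VIa isoform of heart and skeletal muscle, had 3, 1126 and 25 counts in BAT AKO libraries against 116, 0 and 0 counts in BAT controls, and 13, 764 and 17 counts in WAT AKO libraries against 507, 160 and 99 counts in WAT controls. In each group its highest count was in the library with the largest share of muscle markers. The log2 fold change of AKO over control in BAT was 3.36 (SE 2.07, adjusted p = 0.492), and without BAT AKO library 2 it was −1.503 (adjusted p = 0.776). That of Atp5g1 was 1.29 (SE 0.859, adjusted p = 0.525), and without BAT AKO library 2 it was −0.63 (adjusted p = 0.405).

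Between the tissues, Cox6a2 was not called in AKO mice (1.15, SE 1.96, adjusted p = 0.636) or in controls (−2.15, SE 1.53, adjusted p = 0.278). The replicate block takes libraries with the same number as pairs, which the labels do not state. With it, Cox6a2 was called lower in BAT controls (−3.24, adjusted p = 0.0275), which makes 2 members lower. It was also called lower in controls without BAT control library 1 (adjusted p = 0.0107) and without the libraries richest in muscle counts (adjusted p = 0.00576), where both remaining BAT control libraries held 0 counts and no fold is given. In AKO mice the sign turned with single libraries: the value was −3.66 without BAT AKO library 2 (adjusted p = 0.166), 5.50 without WAT AKO library 2 (adjusted p = 0.0823), and 0.65 without both (adjusted p = 0.494). It was called higher in AKO mice with the replicate block (0.96, adjusted p = 0.035) and with the muscle marker covariate (1.11, adjusted p = 0.00965). Cox6a2 shares 70 exon bases with Itgad, an integrin gene of macrophages on the opposite strand. Itgad had 56, 61 and 18 counts in WAT AKO libraries against 832, 726 and 1620 counts in WAT controls, and at most 8 counts in any BAT library. Its part in the counts of Cox6a2 was not tested.

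**Figure D5:**
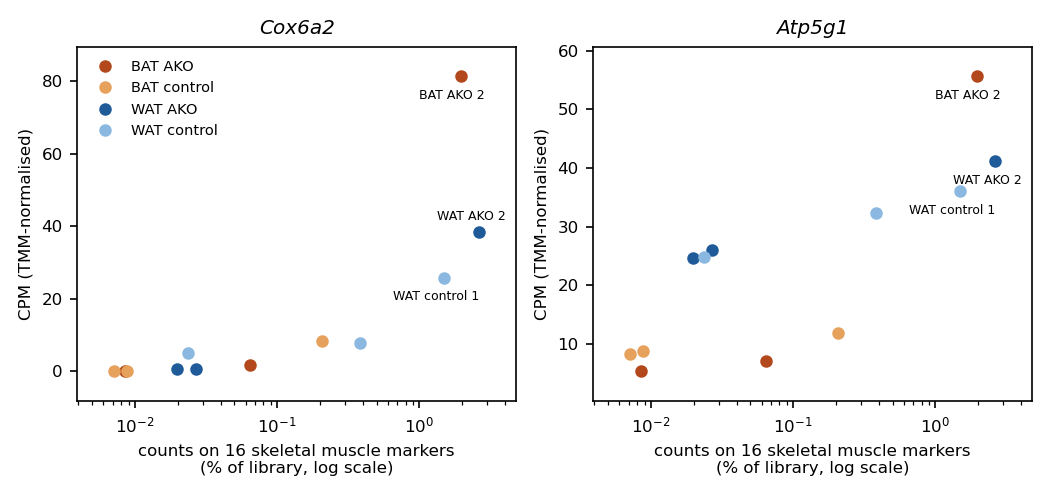
CPM (y axis, linear) of Cox6a2 and Atp5g1 against the share of counts on 16 skeletal muscle markers (x axis, log scale) in each of the 12 libraries, coloured by group. Both genes are highest in BAT AKO library 2, at 81.3 CPM for Cox6a2 and 55.6 CPM for Atp5g1, and Atp5g1 otherwise lies lower in BAT (5.3 to 11.8 CPM) than in WAT (24.6 to 41.2 CPM).

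Many members have near-identical copies elsewhere in the genome, with which reads may be shared. Copies with at least 95% identity over at least 50% of the coding sequence were annotated for 17 members. The coding sequence of Atp5l (subunit g) is 100% identical to Gm10221 over all 309 bases, and over all libraries Atp5l had 8458 counts and Gm10221 8972. Gm10221 was higher in BAT by a log2 fold change of 2.27 in AKO mice and 2.13 in controls, beside 2.08 in AKO mice and 2.09 in controls for Atp5l, so the direction is shared while the level of Atp5l is uncertain. The copy of Atp5g1, Gm10039, is 99.8% identical over 408 bases and had 1327 counts beside 5165 for Atp5g1. Added together, they reached 27.3 ± 32.7 CPM in BAT AKO against 39.4 ± 11.3 CPM in WAT AKO, and 11.9 ± 1.79 CPM in BAT controls against 39 ± 6.63 CPM in WAT controls (SD, n = 3 each). Copies of Cycs, Cox5b, Uqcr11, Cox7c and Atp5h took between 7.16% and 16% of the summed counts in each group.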

How the data were processed

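The authors deposited raw counts, as integers for each Ensembl gene in every library. Their deposited FPKM column scales the same counts by library total and a factor fixed for each gene, to within a relative deviation of 9.12e-09. The submitters' processing notes list mm10, HTSeq 0.6.0, HISAT2 2.1.0 and Bowtie2 2.2.3, and the sources used here give neither the role of each tool nor the strand setting or annotation release. For 52403 of the 52550 IDs a symbol was found in GENCODE M21, which is on mm10.

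The main test was that of edgeR 4.0.16 under R 4.3.3 (quasi-likelihood F-test, TMM, filterByExpr with a minimum count of 10 and total of 15), on the 6 libraries of each comparison, or on all 12 for the difference of the AKO effects. DESeq2 1.42.0 and limma 3.58.1 (voom, and log2 FPKM plus 1 or 0.1) served as alternatives. The other alternatives were RLE factors, library totals with and without mitochondrial genes, no filter, a mean of at least 2 CPM, all 12 libraries in 1 fit, the replicate block, a muscle marker covariate, leaving out each library or the one richest in muscle counts in each group, and an adjusted p under 0.1. Log2 CPM per complex used a prior count of 2. The tests were also run on simulated counts with the same dispersion for every gene. That setting lacks the muscle-rich libraries of these data, so no support is drawn from it.

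The members, gene lists and rules were chosen with earlier results of these data known. The text names, besides Mcu, the members with the smallest p of each complex in the AKO comparisons, the 3 highest and lowest of each complex between tissues, and the isoform families. Copies were sought with blastn 2.17.0. Promoter windows came from RefSeq (GRCm38.p6). Sampling noise alone did not account for the spread within groups (chi-square per degree of freedom 16.5 to 83.4), and none were merged. The floor of 3 counts covers counting error only. Every per-sample column was assigned to a library. In controls, libraries of BAT and WAT with the same replicate number tended to deviate together (correlations of 0.60, 0.20 and 0.51). The replicate block takes the numbers to pair them, which comes from the data, not from the labels. Deviations from a mean of 3 libraries are not independent. Control library 1 was the richest in muscle counts in both tissues, and the part of muscle RNA in these correlations was not tested. The main test used no pairing.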

Additional observations from a re-analysis of the deposited data

How the results depend on the processing

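The count of members higher in BAT than in WAT lay between 39 and 43 in AKO mice over the alternatives run, and was 40 in controls under each of them. In AKO mice 0 members were lower, and 1, Atp5g1, without BAT AKO library 2 or without the libraries richest in muscle counts. In controls 1 member was lower, 0 with all 12 libraries in the fit, and 2 with the replicate block, without BAT control library 1 or without the libraries richest in muscle counts, Cox6a2 being the member added. Leaving out single libraries gave 0 to 1 lower members in AKO mice and 1 to 2 in controls. In AKO against control, 0 members were called in BAT under every alternative, and in WAT 1 higher member, Cox6b2, with DESeq2 and with all 12 libraries in the fit. The share of all genes called in the AKO comparisons moved far more: in WAT edgeR called 3 genes, 277 with no filter, 1030 with all 12 libraries in the fit, 1649 without WAT control library 2 and 0 with the replicate block, and DESeq2 1679. In BAT edgeR called 11, 95 without BAT control library 2, 0 without BAT control library 3 or BAT AKO library 3, and DESeq2 280. For the difference of the AKO effects edgeR called 45, 923 without WAT control library 2 and 0 without the libraries richest in muscle counts, and DESeq2 973. The difference of the AKO effects gave 1 lower member, Cox6b2, with DESeq2. Atp5j in AKO mice, BAT over WAT, reversed to −0.11 with library totals, −0.11 with log2 FPKM plus 1 and −0.12 with log2 FPKM plus 0.1. The causes were not tested.

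Over 108 fold changes of named genes and 2121 alternative values, 116 values changed sign. Among these 116, 3 belonged to a fold change called in the main test (that of Atp5j). A call was lost for 19 values and gained for 17. In AKO against control, libraries with the same replicate number did not deviate together throughout. Their correlations lay between −0.69 and 0.09 in BAT and between −0.57 and 0.31 in WAT. Between the tissues of AKO mice the correlations were 0.65, 0.72 and 0.08, beside 0.60, 0.20 and 0.51 in controls. The labels settle the pairing of the tissues in neither genotype. The replicate block gave 0 called members in both AKO comparisons, where 1 of all genes was called in BAT and 0 in WAT. Between the tissues it gave 43 higher members in AKO mice, Cox6a2 being the added member (0.96, adjusted p = 0.035). The printed intervals rest on 3 libraries a group, whose spread exceeded counting noise.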
